A study of Mus musculus with 18 samples.

Results

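Mature miRNAs were compared between mouse embryonic fibroblasts (MEF) without the miR-17~92 cluster (d/d) and MEF that carried the cluster floxed and intact (fl/fl), with 3 small RNA libraries in each group. The comparison covers 662 of the 1204 miRNAs listed for these cells, namely those whose mean reached 10 normalized counts across the table's 9 libraries. The other 3 libraries of that table are MEF that overexpress the cluster (OV). They counted in that mean and helped to estimate the spread between libraries, and below they rank miRNAs and hairpin arms by abundance. The series holds 18 libraries of MEF and B cells, and its labels give the same strain, Eu-myc mice, for both groups compared here. Spike-in RNAs were added to total RNA, small RNAs were purified from a gel, and the NEBNext small RNA kit was used. The labels do not state how the cluster was deleted, whether a group is 1 line or several, or whether replicates were separate cultures. The p-values therefore measure the spread between these libraries, which may be technical. The libraries are called FL3, FL4 and FL5 (fl/fl) and DEL1, DEL2 and DEL3 (d/d), as in the deposited table.

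A normalized count is a read count divided by 1 size factor per library, so it is not corrected for anything else, and levels of different miRNAs also differ by how well each was captured. Reads on listed miRNAs ran from 17428016 to 18609610 in fl/fl and from 17884099 to 24920911 in d/d. Differences are d/d minus fl/fl on the scale of log2(normalized count + 1), which understates the change of low miRNAs, and are given with their SE. Adjusted p-values are from limma with Benjamini-Hochberg adjustment over all 662 miRNAs, and a miRNA is said to rise or fall where its adjusted p was below 0.05. In all, 386 of 662 miRNAs (58.3%) differed, 203 (30.7%) being higher and 183 (27.6%) lower in d/d. A call was thus the common case in this comparison, and counts within a family are read against these shares. Replicates lay close together, with a median SD of 0.18 in fl/fl and 0.19 in d/d on the log2 scale, although FL3 stood off from FL4 and FL5 for single miRNAs named below. Fewer cells with a miRNA and less of it per cell cannot be told apart in such bulk libraries.

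The miR-17~92 cluster is a polycistron on chromosome 14 whose transcript, activated by MYC, is cut into 6 hairpins by the Microprocessor and then by Dicer into mature miRNAs. Each miRNA is loaded on an Argonaute protein and finds its targets mainly through its seed, bases 2 to 8, so that miRNAs with the same seed share many targets. The cluster promotes proliferation and survival in lymphocytes and many tumours, and its relatives, the miR-106b~25 cluster in an intron of the replication gene Mcm7 and the cluster from miR-106a to miR-363 on the X chromosome, carry some of the same seeds.

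The guide strands of miR-17~92 fall into 4 seed groups, and the relatives that share a seed are shown with them because they decide how much of each seed was left after deletion. Sequences are RefSeq's mature sequences (GRCm38.p6), found by name for 553 of the 662 miRNAs, and capitals mark the seed. In that annotation the 6 hairpins lie at chr14:115043671-115044506 on the plus strand.
miR-17-5p: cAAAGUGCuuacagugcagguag
miR-20a-5p: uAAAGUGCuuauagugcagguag
miR-93-5p: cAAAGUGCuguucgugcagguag
miR-106b-5p: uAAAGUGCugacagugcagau
miR-106a-5p: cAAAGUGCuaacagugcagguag
miR-20b-5p: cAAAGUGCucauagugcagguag
miR-18a-5p: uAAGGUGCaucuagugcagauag
miR-19a-3p: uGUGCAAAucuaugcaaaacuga
miR-19b-3p: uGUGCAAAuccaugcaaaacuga
miR-92a-3p: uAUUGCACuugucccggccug
miR-25-3p: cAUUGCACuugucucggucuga
miR-92b-3p: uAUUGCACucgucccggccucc
miR-32-5p: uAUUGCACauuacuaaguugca

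All 10 measured products of miR-17~92 fell in d/d, where 27.6% of all miRNAs did, and the cluster kept 2.03% of its fl/fl total. The summed normalized counts were 97382 in FL3, 67773 in FL4 and 73496 in FL5, and 1673, 1709 and 1419 in DEL1, DEL2 and DEL3. The groups were far apart, and an exact permutation of the totals (two-sided) gave p = 0.1, the lowest value open to 3 against 3 libraries. Another 2 listed products of the cluster stayed under the minimum and were not tested. The median difference of the 10 was −5.58, against 0.02 over all 662 miRNAs, and the range was from −6.12 to −4.46.

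MiR-92a-3p, the most abundant product, had 90491, 60191 and 66451 normalized counts in FL3, FL4 and FL5 and 1548, 1594 and 1326 in the d/d libraries (log2 −5.58 ± 0.16, adjusted p = 1.11e-09). MiR-17-5p, which represses the cell cycle inhibitor p21 and the pro-apoptotic BIM, went from 3029, 3704 and 3164 to 50.47, 53.03 and 37.21 (log2 −6.12 ± 0.18, adjusted p = 1.24e-09). MiR-20a-5p, which has the seed of miR-17-5p, was at 2120, 2152 and 2111 in fl/fl and at 37.7, 37.1 and 28.7 in d/d. No d/d library came near a fl/fl library for any of these.

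MiR-19b-3p, a main oncogenic product of the cluster, fell from 595, 583 and 604 to 10.7, 7.26 and 7.44 (log2 −5.99 ± 0.20, adjusted p = 4.22e-09). MiR-19a-3p, which differs from it only by U11C (miR-19a-3p first, positions from the 5′ end), fell by 5.57 ± 0.22. MiR-18a-5p was the least abundant guide strand, at 95.2, 91.6 and 85.1 in fl/fl and 2.13, 2.18 and 3.19 in d/d. Its other arm, miR-18a-3p, was more abundant, at a mean of 301.9 ± 22.0 in fl/fl (SD, n = 3), and fell by 5.91 ± 0.15.

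The passenger strands fell with their guides. MiR-17-3p fell by 4.90 ± 0.33, and miR-92a-1-5p, the passenger strand of the miR-92a copy inside the cluster, by 5.57 ± 0.55. MiR-20a-3p had 16, 23 and 19 reads in fl/fl and none in any d/d library, which is at least 8.53-fold lower when 3 reads per library are taken as the floor.

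What was left in d/d was small and similar in the 3 libraries. MiR-92a-3p had 2177, 2194 and 1247 reads in d/d, 2.08% of its fl/fl level, and miR-17-5p had 71, 73 and 35 reads, 1.44% of its fl/fl level. RefSeq lists another gene copy of miR-92a-3p and of miR-19b-3p, Mir92-2 and Mir19b-2, in that X-linked cluster, whereas miR-17-5p, miR-18a, miR-19a and miR-20a have 1 copy each. The X-linked miR-106a-5p, which differs from miR-17-5p by U10A (miR-17-5p first), fell from 35.8, 30.9 and 41.4 to 5.69, 2.18 and 0 normalized counts (log2 −3.73 ± 0.56, adjusted p = 0.000236). MiR-20b-5p fell from 11.2, 9.16 and 8.95 to 3.55, 0.73 and 0 (log2 −2.43 ± 0.52, adjusted p = 0.00226). These close copies are uncertain, since miR-106a-5p had 1.10% of the reads of miR-17-5p in fl/fl and miR-20b-5p had 0.463% of those of miR-20a-5p. In d/d these shares were 6.15% (11 of 179 reads) and 4.58% (6 of 131 reads), and whether these are misassigned reads was not tested.

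**Figure D1:**
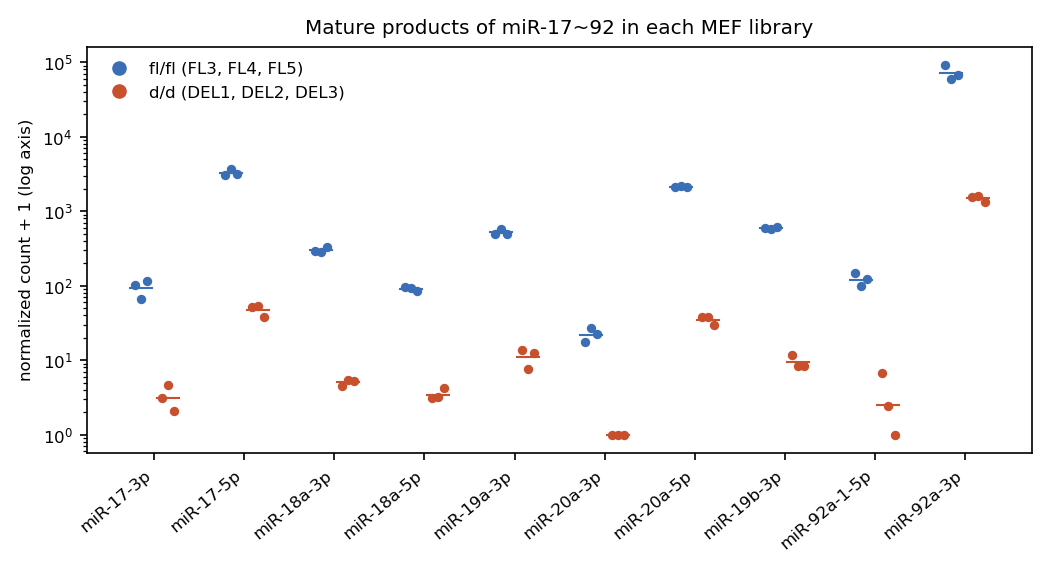
Normalized count + 1 (log axis) of the 10 measured products of miR-17~92 in the 3 fl/fl (blue) and 3 d/d (orange) MEF libraries; points are libraries and bars are means of the log2 values. Every product lies lower in all d/d libraries than in any fl/fl library, and miR-20a-3p has no reads in d/d.

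Over a whole seed group the loss was smaller wherever relatives outside the cluster supplied most of the seed. The pool of 6 miRNAs with the seed AAAGUGC had 19417, 34003 and 27219 normalized counts in FL3, FL4 and FL5 and 14555, 13061 and 10573 in d/d, so that 48.2% was left. The pool of 4 miRNAs with the seed AUUGCAC had 346715, 319308 and 322609 in fl/fl and 150725, 162822 and 158022 in d/d, so that 47.7% was left. For the seed GUGCAAA, carried by miR-19a-3p and miR-19b-3p alone, 1.65% was left, and for AAGGUGC, carried by miR-18a-5p alone, 2.71%. The groups did not overlap in any of the 4 pools. By exact permutation (two-sided) p was 0.1 for each pool, the lowest possible, and 0.1 after Benjamini-Hochberg adjustment over the 4 pools.

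Relatives outside the cluster held 79.0% ± 4.87 of the AAAGUGC pool in fl/fl and 99.4% ± 0.0443 in d/d (SD, n = 3 each). In the AUUGCAC pool they held 78.2% ± 3.78 and 99.1% ± 0.0976. These relatives did not rise. Outside the cluster the AAAGUGC pool went from 21453 ± 6953 to 12648 ± 1999 and the AUUGCAC pool from 257166 ± 1690 to 155701 ± 6086.

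In miR-106b~25, 4 of 6 measured products fell and none rose, with a median of −0.58. MiR-25-3p, by far its most abundant product, had 243085, 246612 and 243950 in fl/fl and 146171, 157707 and 154216 in d/d (log2 −0.68 ± 0.08, adjusted p = 5.52e-05). MiR-106b-3p fell by 0.49 ± 0.10, and miR-25-5p did not pass, at −0.11 ± 0.12. MiR-93-5p had 12508, 23639 and 18339 in fl/fl and 12591, 11225 and 9540 in d/d, so that FL3 lay among the d/d libraries. Its difference of −0.67 ± 0.25 (adjusted p = 0.0377) lost its call without any 1 of the other 5 libraries, at −0.46 and an adjusted p of 0.148 without FL4, in a range over alternatives from 0.00287 to 0.148. MiR-106b-5p had 1713, 4467 and 3555 in fl/fl and 1866, 1743 and 967 in d/d (log2 −1.04 ± 0.40, adjusted p = 0.0446). FL3 lay among the d/d libraries here too, and the call was lost without any 1 of the other 5 libraries, at −0.74 and an adjusted p of 0.162 without DEL3, in a range from 0.00305 to 0.162.

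The other 2 relatives in the AUUGCAC pool lie alone in the genome. MiR-92b-3p, from chromosome 3, fell from 12664, 12184 and 11841 to 2797, 3241 and 2147 (log2 −2.18 ± 0.22, adjusted p = 2.05e-05), and its passenger miR-92b-5p fell from 13121, 14477 and 14281 to 2291, 2563 and 3047 (log2 −2.41 ± 0.25). Both arms of this hairpin thus lay at about the same level and fell by about as much. MiR-92b-3p differs from miR-92a-3p by U10C and G21C (miR-92a-3p first). MiR-32-5p had 475, 321 and 367 in fl/fl and 210, 280 and 333 in d/d (log2 −0.50 ± 0.20, adjusted p = 0.0540), with overlap between groups.

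**Figure D2:**
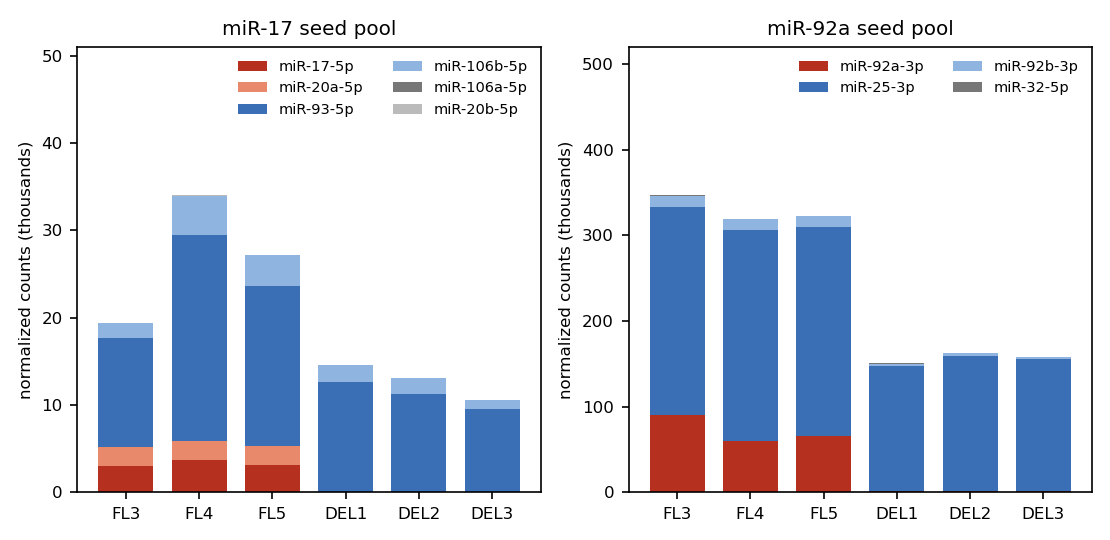
Normalized counts (axis from 0) of the miRNAs that share the seed of miR-17-5p (left) and of miR-92a-3p (right), stacked by miRNA for each library. Red shades are products of miR-17~92, blue and grey shades are relatives outside it, and the whole bars of the 3 d/d libraries are shorter than those of the 3 fl/fl libraries.

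Outside the cluster, falls were more frequent and rises less frequent among the most abundant miRNAs, as counts with no test. Over all 662 miRNAs, 27.6% fell and 30.7% rose. Grouped by their mean in the OV libraries, which are no part of the contrast, 16 of the 26 miRNAs at 100000 normalized counts or more fell and 1 rose, with a median of −0.51. Among the 61 from 10000 to 100000, 31 fell and 12 rose, with a median of −0.34. The 90 from 1000 to 10000 had 33 falls and 31 rises (median −0.14), and the 178 from 100 to 1000 had 48 and 64 (median 0.10). Among the 262 from 10 to 100, 44 fell and 76 rose, with a median of 0.09. The single riser of the highest class was miR-7a-5p, named after its values were seen, a miRNA of neural and endocrine cells that represses EGFR. It went from 185443, 185422 and 179289 to 284646, 320711 and 403696 (log2 0.86 ± 0.15, adjusted p = 0.000574), and with spike-in scaling it was at 0.43 (adjusted p = 0.0501, the highest of its alternatives).

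The calls depended on the scaling. In the table scaled to the spike-ins differences were lower by 0.43 (by less for low miRNAs, because of the added 1), and 147 miRNAs (22.2%) were higher and 283 (42.7%) lower, 430 (65.0%) in all. The median over all 662 was then −0.39, and it was −0.27 with medians re-centred on the miRNAs and −0.20 with quantile scaling, which gave 162 higher and 245 lower, and 173 higher and 231 lower. All 183 falls were kept with spike-in scaling, 147 of the 203 rises were kept, 56 were lost and 0 turned into falls. A small rise below is therefore relative to the typical miRNA, and a spike-in value or count is given below where a rise that is named or counted in a list lost its call.

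**Figure D3:**
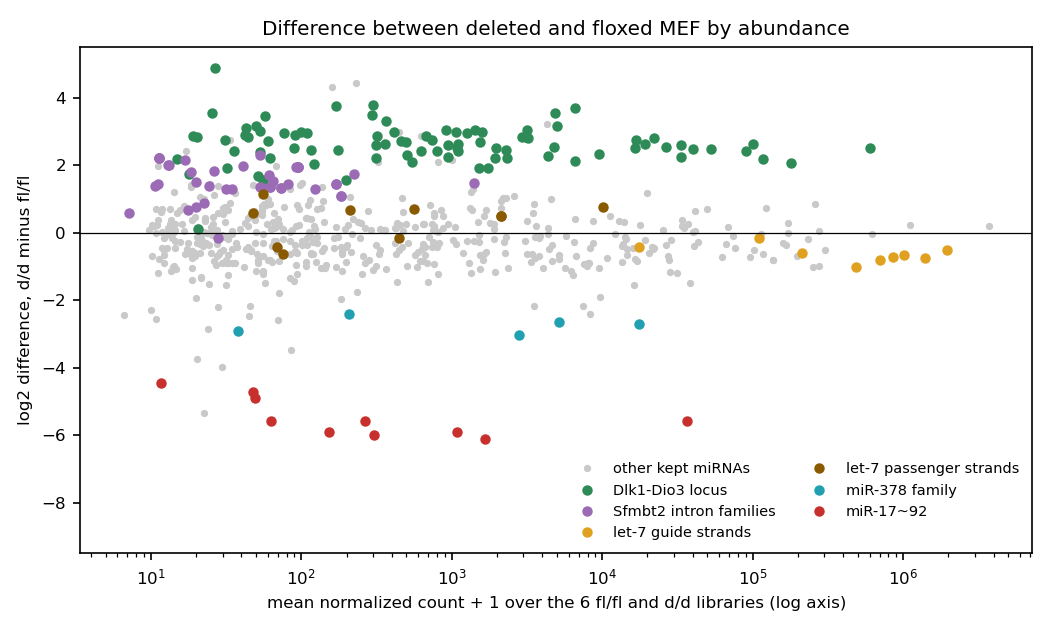
Log2 difference, d/d minus fl/fl, against the mean normalized count + 1 over the 6 libraries (log axis) for the 662 miRNAs, each point a miRNA, with 6 groups coloured. Products of miR-17~92 lie between −6.12 and −4.46, the Dlk1-Dio3 miRNAs mostly above 1.5, and the let-7 guide strands, at the right, between −1.01 and −0.16.

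The largest block of rises came from the imprinted Dlk1-Dio3 locus on chromosome 12. Its miRNAs are made from the non-coding RNAs of the maternal chromosome, Meg3, the Rtl1 antisense RNA, Rian and Mirg, while the paternal chromosome expresses Dlk1, Rtl1 and Dio3. The locus is active in embryonic and neural tissue and low in many adult cells. By RefSeq position 89 measured products of 53 hairpins lie here, from 109563692 to 110278129, and 86 of the 89 rose, where 30.7% of all miRNAs did, with 0 falls. The median difference was 2.62, against 0.02 over all miRNAs, and with spike-in scaling it was 2.19 with 83 of 89 higher. Their sum was 488120, 424246 and 436342 in FL3, FL4 and FL5 and 2382561, 2311179 and 2615403 in DEL1, DEL2 and DEL3. It made up 2.31% ± 0.231 of the normalized counts in fl/fl and 13.6% ± 0.736 in d/d (SD, n = 3 each).

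Members with many reads on which the account below turns are shown, miR-127-3p and miR-434-5p from the stretch opposite Rtl1, miR-323-3p from the stretch before Mirg and miR-541-5p from Mirg.
miR-127-3p: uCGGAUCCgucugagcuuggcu
miR-434-5p: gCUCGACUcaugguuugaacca
miR-323-3p: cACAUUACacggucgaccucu
miR-541-5p: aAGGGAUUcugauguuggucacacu

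Both products of the hairpin within Meg3 rose, with a median of 3.22. MiR-770-5p went from 70.6, 63.0 and 63.8 to 751, 578 and 647 (log2 3.30 ± 0.43, adjusted p = 9.12e-05). Of 19 products that overlap Rtl1, on its opposite strand, 18 rose, with a median of 2.44. MiR-127-3p, which pairs fully with the Rtl1 mRNA and cuts it, went from 79155, 62701 and 67152 to 286910, 278049 and 309264 (log2 2.07 ± 0.26, adjusted p = 7.07e-05). MiR-434-5p from the same transcript went from 32272, 26799 and 26344 to 148832, 148135 and 156824 (log2 2.42 ± 0.20). Within each group the libraries lay close together, and the groups were several fold apart.

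All 5 products in Rian rose (median 2.82), among them miR-341-5p, a rodent miRNA, from 62.4, 33.2 and 39.2 to 606, 259 and 780 (log2 3.49 ± 0.40). Of 46 products that overlap none of these genes, most of them in the stretch before Mirg, 44 rose (median 2.61), and all 17 in Mirg did (median 2.73). MiR-541-5p was the most abundant miRNA of the locus, at 187104, 174784 and 176663 in fl/fl and 1015483, 935471 and 1142097 in d/d (log2 2.52 ± 0.26, adjusted p = 2.22e-05). MiR-379-5p, the start of the largest cluster here, went from 48115, 38879 and 38585 to 162459, 190961 and 220223 (log2 2.19 ± 0.26). MiR-134-5p, which restrains dendritic spine growth in neurons, rose by 2.59 ± 0.26, and miR-409-3p by 2.64 ± 0.25.

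Among members whose mean over the 6 libraries reached 100 normalized counts, the largest rises were those of miR-758-3p (log2 3.77 ± 0.30), miR-323-5p (3.76 ± 0.55), miR-382-3p (3.69 ± 0.51) and miR-323-3p (3.54 ± 0.27). MiR-323-3p went from 778, 764 and 766 to 9529, 8630 and 8665. Below that level miR-487b-5p, named after its values were seen, went from 4.09, 0 and 0 to 54.0, 50.8 and 44.6 (log2 4.88 ± 0.87, adjusted p = 0.000778). Its fl/fl counts were all under the minimum mean of 10, which it passed with the d/d libraries included. The size of this rise is therefore uncertain. MiR-382-3p was uneven in fl/fl, at 2162, 450 and 841, and even in d/d, at 11562, 12391 and 12288. The 3 products without a call were miR-337-3p (1.93 ± 1.05), miR-666-3p (2.19 ± 1.06) and miR-1247-3p (0.11 ± 0.38). Of these, miR-337-3p and miR-666-3p were at no more than 77.7 normalized counts in any library, with no overlap between groups. MiR-1247-3p, whose gene lies beside Dio3 at the far end, was at 16.4, 19.5 and 20.1 in fl/fl and 22.8, 18.9 and 19.1 in d/d, and its sign turned with spike-in scaling (−0.30) and re-centred medians (−0.17).

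**Figure D4:**
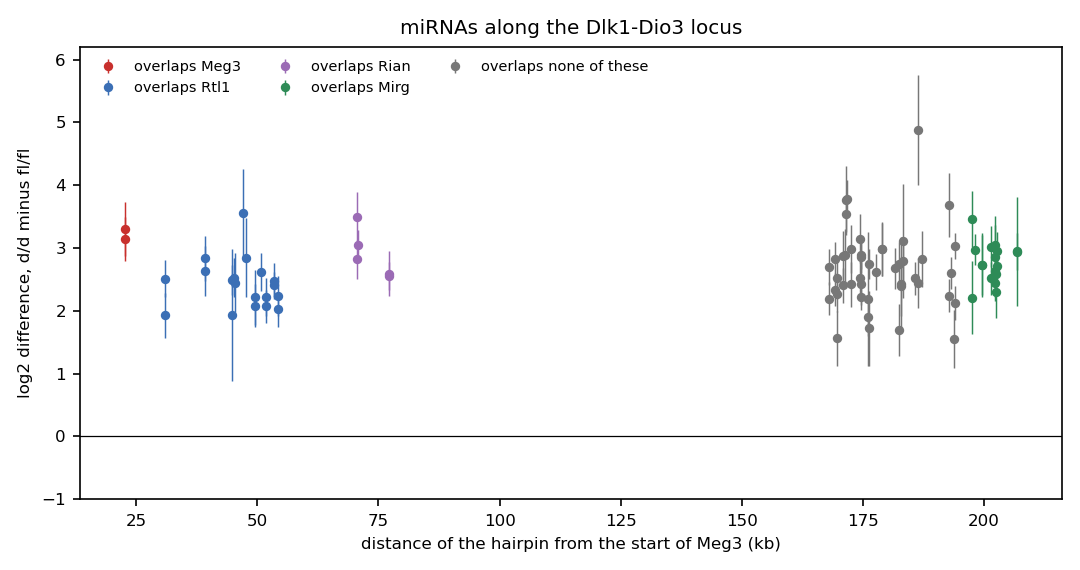
Log2 difference, d/d minus fl/fl, with its SE, of each measured miRNA of the Dlk1-Dio3 locus against the distance of its hairpin from the start of Meg3 (kb), coloured by the gene it overlaps; miR-1247-3p, farther away, is left out. Every point lies above 1.5, with medians from 2.44 to 3.22 by transcript.

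Most measured miRNAs listed for the imprinted genes Sfmbt2, Igf2 and Mest also rose. H19 was listed as well, but no product of it reached the minimum mean. These genes were chosen with earlier results of these data known, and further imprinted loci were not counted. Whether imprinted miRNAs as a class rose was therefore not tested. The Sfmbt2 gene, paternally expressed and active in placenta, carries a large intronic array of the related miR-297, miR-466, miR-467 and miR-669 families. Of 64 listed products with these family names, 41 reached the minimum mean, and of these 41, 37 rose and none fell. That mean includes the d/d libraries, so a product low in fl/fl could pass by being high in d/d, which favours rises. How far this raised the count was not tested. The products were listed by name and not by position, so whether each comes from Sfmbt2 was not tested. The median was 1.45, and 1.02 with spike-in scaling, where 33 rose. Their sum was 2239, 1846 and 1961 in fl/fl and 5783, 5934 and 5194 in d/d. MiR-669c-5p, the most abundant, went from 839, 659 and 745 to 1956, 2160 and 2062 (log2 1.47 ± 0.15, adjusted p = 2.05e-05), and miR-467c-5p from 109.5, 95.1 and 104.1 to 359.7, 363.2 and 314.7 (log2 1.74 ± 0.16). These counts are not 41 separate measurements, since 6 sets of entries, such as miR-669a-5p with miR-669p-5p or the 3p arms of miR-297a, miR-297b and miR-297c, have the same values in every library.

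MiR-483, inside the paternally expressed growth factor gene Igf2, had the largest rises outside Dlk1-Dio3.
miR-483-5p: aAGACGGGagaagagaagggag
miR-483-3p: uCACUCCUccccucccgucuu
Its 5p arm (chr7:142654968-142654989, minus strand) went from 19.4, 10.3 and 14.6 to 294, 303 and 319 (log2 4.32 ± 0.40, adjusted p = 1.14e-05). The 3p arm went from 12.3, 26.3 and 22.4 to 508, 442 and 373 (log2 4.43 ± 0.75, adjusted p = 0.000546). MiR-335-3p, from the imprinted gene Mest, rose by 0.99 ± 0.21 from a mean of 3059 ± 109 to 6072 ± 393, and miR-335-5p from the same hairpin did not pass. Of the X-linked rodent cluster miR-465 to miR-881, 11 miRNAs were listed, and none reached the minimum mean, so they were not tested.

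The let-7 family, which restrains RAS, MYC, HMGA2 and LIN28 and marks differentiated cells, made up the largest share of the reads. Its 9 guide strands, miR-98-5p among them, and their 10 passenger strands went in different directions. Of the guide strands, 8 fell and none rose, with a median of −0.67, and their sum made up 42.6% ± 2.01 of the normalized counts in fl/fl and 29.0% ± 1.18 in d/d (SD, n = 3 each). Of the passenger strands 7 rose and none fell, with a median of 0.54. With spike-in scaling all 9 guides were lower, and of the passengers 1 was higher and 3 were lower, with a median of 0.11. Guide and passenger are printed for let-7b and let-7c to show that the arms share no seed.
let-7b-5p: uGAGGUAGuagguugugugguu
let-7b-3p: cUAUACAAccuacugccuuccc
let-7c-5p: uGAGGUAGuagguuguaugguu
let-7c-1-3p: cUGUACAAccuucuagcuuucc

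Let-7i-5p, the most abundant guide, was at 2394012, 2229142 and 2295276 in fl/fl and 1453897, 1607888 and 1811064 in d/d (log2 −0.51 ± 0.10, adjusted p = 0.00181). Quantile scaling set this miRNA to a difference of 0.00, since it held the same rank in every library. Let-7c-5p went from 1627592, 1848495 and 1777503 to 979822, 1144129 and 1008692 (log2 −0.75 ± 0.10), and let-7b-5p from 833702, 953211 and 921520 to 489285, 537307 and 502765 (log2 −0.82 ± 0.11). Let-7g-5p had the largest fall of the 9, −1.01 ± 0.25, with an uneven fl/fl group of 433483, 845739 and 709977. Let-7d-5p did not pass, at −0.16 ± 0.11. For let-7i-5p, let-7c-5p, let-7b-5p and let-7g-5p the groups did not overlap, which was so for 68.0% of all miRNAs.

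Among the passengers, let-7d-3p was the most abundant, at 9092, 6569 and 6750 in fl/fl and 12664, 15006 and 10633 in d/d (log2 0.78 ± 0.20, adjusted p = 0.00779, and 0.34 with an adjusted p of 0.166 with spike-in scaling). Let-7b-3p went from 486, 391 and 404 to 771, 723 and 593 (log2 0.70 ± 0.16, and 0.27 with spike-in scaling, where the call was lost). Let-7c-1-3p went from 25.6, 38.9 and 38.1 to 86.7, 63.2 and 77.6 (log2 1.14 ± 0.28). The entries let-7a-1-3p and let-7c-2-3p have the same sequence and differ by at most 5 reads in any library, so their rises of 0.50 each are 1 measurement. Their call was lost with spike-in scaling, where both were at 0.07, and their sign turned with quantile scaling, to −0.048 and −0.051.

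Over all hairpins with both arms measured, 207 pairs, r between the arms was 0.92 (across pairs, which share their libraries). In 93 pairs both arms were called in the same direction. Within groups r was lower, at 0.79 for the 144 other hairpins, 0.21 for Dlk1-Dio3 and −0.12 for Sfmbt2. It was −0.06 for let-7 and −0.70 for the 4 pairs of miR-17~92. The arm less abundant in the OV libraries lay above the other in 130 pairs, by a median of 0.15. Only 10 pairs had opposite calls, and 6 of those were let-7 pairs, of 10 let-7 pairs in all. The other 4, named after their values were seen, were miR-23a, miR-27a and miR-27b, where the main arm fell and the other rose, and miR-344d, where it was the reverse. The rises of miR-23a-5p (0.69), miR-27a-5p (0.49) and miR-27b-5p (0.36) lost their call with spike-in scaling, at 0.26, 0.058 and −0.073, and with them the opposite calls of these 3 pairs. Of the let-7 passenger strands only 1 was still higher with spike-in scaling, so most opposite calls of let-7 were lost as well. The let-7 pairs with let-7a-1-3p and let-7c-2-3p also rest on 1 passenger measurement. MiR-27b-3p fell by 0.52 ± 0.19 and miR-27a-3p by 0.44 ± 0.13, with adjusted p-values of 0.0406 and 0.0132. Both calls were lost without FL4, and that of miR-27b-3p also without FL5 or any 1 d/d library, at an adjusted p of up to 0.154.

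**Figure D5:**
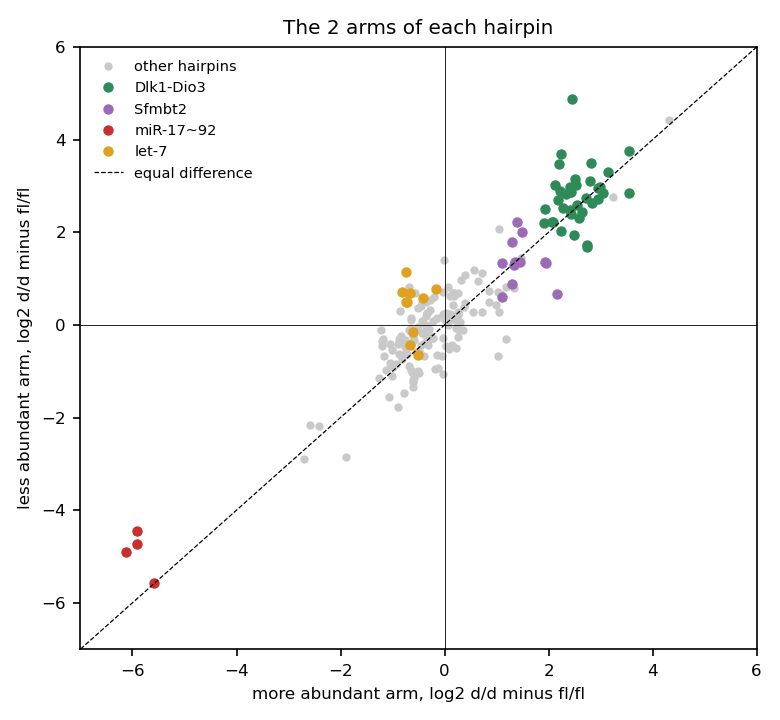
Log2 difference, d/d minus fl/fl, of the less abundant arm against that of the more abundant arm for 207 hairpins, each point a hairpin, with the dashed line at equal differences; the arms are ranked by their mean in the OV libraries. Most let-7 pairs lie in the upper left, with the main arm lower and the other arm higher in d/d, while the pairs of Dlk1-Dio3 and miR-17~92 have the same sign on both axes.

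Several other abundant families fell. The miR-30 family, which represses SNAI1 and other genes of mesenchymal change, had 10 of 11 products lower and none higher, with a median of −0.77. MiR-30d-5p, the most abundant of them, was at 360590, 372986 and 372452 in fl/fl and 192658, 177950 and 187616 in d/d (log2 −0.99 ± 0.08, adjusted p = 6.22e-06). Of the miR-26 and miR-29 families, which MYC represses, 5 of 10 fell and 1 rose (7 and 0 with spike-in scaling), with a median of −0.67. MiR-26a-5p went from 339256, 336395 and 343392 to 178006, 162407 and 163002 (log2 −1.02 ± 0.09), and miR-29a-3p, a repressor of collagens, fell by 0.60 ± 0.12.

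All 4 products of miR-221 and miR-222, repressors of the cell cycle inhibitor p27, fell. MiR-222-3p was at 111004, 127620 and 121696 in fl/fl and 70656, 73958 and 72181 in d/d (log2 −0.73 ± 0.14), and miR-221-3p fell by 1.17 ± 0.19. Of the p53-responsive miRNAs, 7 of 9 fell and none rose, with a median of −0.90. MiR-34c-5p, which represses cell cycle genes, went from 11634, 9728 and 10339 to 5188, 5440 and 6333 (log2 −0.90 ± 0.12), and miR-192-5p fell by 1.04 ± 0.11. Both measured products of miR-224 and miR-452, from an intron of Gabre, fell, with miR-224-5p at 53148, 61619 and 56658 in fl/fl and 20849, 20695 and 19164 in d/d (log2 −1.50 ± 0.10, adjusted p = 1.06e-06). These medians kept their sign under the 3 other scalings where they were recomputed, namely for miR-30, for miR-26 and miR-29, for miR-221 and miR-222 and for the p53-responsive list.

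Among miRNAs whose mean over the 6 libraries reached 100 normalized counts, the 3 largest falls outside miR-17~92 were in the miR-378 family, whose founder miR-378a lies in an intron of the metabolic coactivator gene Ppargc1b. All 5 measured members fell, with a median of −2.70, and their sum went from 45069, 42599 and 46968 to 6847, 6314 and 7223. The copies shown come from different chromosomes but share most bases, so that reads may be split between them.
miR-378c: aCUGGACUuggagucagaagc
miR-378d: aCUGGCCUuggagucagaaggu
miR-378b: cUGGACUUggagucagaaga
MiR-378a-3p went from 30838, 29228 and 31753 to 4685, 4419 and 4988 (log2 −2.70 ± 0.28, adjusted p = 2.33e-05). MiR-378c fell by 3.02 ± 0.27, miR-378d by 2.66 ± 0.28 and miR-378b by 2.40 ± 0.30. The groups were far apart for each of them.

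Other large falls were spread over the genome. MiR-101a-3p, a repressor of the histone methyltransferase EZH2, went from 6304, 5888 and 5125 to 1071, 1265 and 1484 (log2 −2.19 ± 0.23, adjusted p = 2.34e-05). MiR-218-5p, from the introns of Slit2 and Slit3, went from 15451, 14955 and 15384 to 3988, 4226 and 4051 (log2 −1.90 ± 0.11, adjusted p = 6.78e-07). MiR-383-5p (−1.97 ± 0.42) was uneven in fl/fl, at 122, 446 and 322, and miR-34c-3p fell by 1.77 ± 0.38. MiR-153-5p, a neuronal miRNA named after its values were seen, had 28, 61 and 28 reads in fl/fl and none in any d/d library, at least 17.3-fold lower with the floor of 3 reads per library. MiR-146b-5p, a brake on NF-kappaB signalling, also named after its values were seen, went from 25741, 23304 and 24063 to 8367, 7093 and 9403 (log2 −1.56 ± 0.17).

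Of the large rises away from imprinted loci, that of miR-582-3p, from an intron of Pde4d, was the most abundant, from 820, 788 and 858 to 7490, 7467 and 8206 (log2 3.23 ± 0.19, adjusted p = 6.78e-07). MiR-6540-5p went from 42.0, 63.0 and 36.9 to 525, 575 and 503 (log2 3.51 ± 0.23, adjusted p = 1.14e-06). MiR-130b-5p, named after its values were seen, rose from 163, 68.7 and 83.9 to 775, 809 and 762 (log2 2.98 ± 0.32). The miR-181 family, which tunes T cell receptor signalling, split by gene. The 3 measured products of miR-181c and miR-181d, encoded on chromosome 8, rose, and of the 6 of miR-181a and miR-181b 1 rose and none fell. That 1 was miR-181a-1-3p (log2 0.49 ± 0.13), which lost its call with spike-in scaling, at 0.059, where 2 of the 6 were lower.
miR-181a-5p: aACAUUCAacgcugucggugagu
miR-181d-5p: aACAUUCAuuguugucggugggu
MiR-181d-5p went from 759, 781 and 844 to 2039, 1886 and 1973 (log2 1.31 ± 0.13, adjusted p = 1.80e-05). MiR-181a-5p was at 5439, 4783 and 5379 in fl/fl and 4555, 3975 and 3692 in d/d (log2 −0.36 ± 0.15, adjusted p = 0.0645). The shared seed was thus still carried mostly by miR-181a-5p and miR-181b-5p in d/d.

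The libraries carried the miRNAs that mark fibroblasts. Among 24 miRNAs of mesenchymal cells, 4 rose and 7 fell, where 30.7% and 27.6% of all miRNAs did, with a median of 0.04. With spike-in scaling 0 were higher and 12 lower, with a median of −0.39. These 24 made up 27.9% ± 1.20 of the normalized counts in fl/fl and 33.1% ± 0.668 in d/d. MiR-21a-5p, the most abundant miRNA of all, was at 3408473, 3573242 and 3400369 in fl/fl and 3522998, 4098766 and 4301272 in d/d (log2 0.19 ± 0.09, adjusted p = 0.0745), and its sign turned with spike-in scaling, to −0.24. MiR-143-3p, of smooth muscle and fibroblasts, was at 0.22 ± 0.14, and −0.21 with spike-in scaling. Among the other most abundant miRNAs, miR-99b-5p (−0.03 ± 0.10), miR-10a-5p (0.06 ± 0.10) and miR-100-5p (−0.19 ± 0.12) did not pass, while miR-151-3p fell by 0.51 ± 0.13. MiR-199a-3p, which cannot be told from miR-199b-3p because their sequences are the same, fell by 0.81 ± 0.17, and 4 of 6 products of the miR-199 and miR-214 list fell. The entries miR-199a-3p and miR-199b-3p differ by at most 304 reads in any library, so they are 1 measurement. Both were counted in that list and in the calls and share of the 24 mesenchymal miRNAs.

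Markers of other cell types were counted list by list, with no test. Over all miRNAs 27.6% fell and 30.7% rose, so a few calls in a list are the common case. Of 4 measured epithelial miRNAs 3 fell and miR-205-5p rose, and their sum was 269, 273 and 264 in fl/fl and 97.4, 64.6 and 93.5 in d/d. The epithelial miR-200b-3p, which keeps ZEB proteins low, went from 154, 162 and 153 to 15.6, 9.44 and 14.9 (log2 −3.49 ± 0.24). Of 5 haematopoietic miRNAs 2 fell, with miR-155-5p at −0.68 ± 0.19, and the sum was 13988, 11892 and 13016 in fl/fl and 9148, 9738 and 8603 in d/d. Both endothelial miRNAs fell, with miR-126a-3p at −1.08 ± 0.11, and both muscle miRNAs did, with miR-206-3p at −0.81 ± 0.12. Of 9 neural miRNAs 3 fell and 1 rose, miR-129-5p at 1.18 ± 0.15, and the sum was 28502.6 ± 1526 in fl/fl and 42233 ± 1657 in d/d. The part of other cell types in the results above was not tested.

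The 3 Empty libraries are d/d MEF with an empty plasmid, from a table normalized on its own, so only shares of reads are set beside those above, with no test. Their depth was 43164128 to 58911475 reads. Each of the 89 Dlk1-Dio3 miRNAs had a higher share in every Empty library than in any fl/fl library, and together they made up 13.0%, 12.9% and 12.8%. Of 203 miRNAs higher in d/d, 185 lay above all fl/fl libraries in Empty, against 274 of all 657 listed there. Of 178 miRNAs lower in d/d, 117 lay below all fl/fl libraries, against 154 of 657. The miR-378 family was below in 5 of 5. The passenger strands of let-7 made up 0.0549%, 0.0387% and 0.0337% in Empty and 0.0746%, 0.0570% and 0.0577% in fl/fl. Their share was thus not higher in these d/d cells. The guide strands summed to 32.6%, 29.0% and 27.6%, below the fl/fl range of 40.3% to 44.0%. Let-7i-5p, the most abundant guide, overlapped fl/fl. It stood at 92214, 120333 and 132330 RPM (reads scaled to an equal library total) in Empty and 125735, 111221 and 117668 in fl/fl. The 5p arms of let-7a, let-7b, let-7c, let-7d, let-7e, let-7f and let-7g lay below all fl/fl libraries. The Sfmbt2 families made up 0.0749%, 0.0613% and 0.0688% in Empty, from 0.0273% to 0.0345% in d/d and from 0.00921% to 0.0118% in fl/fl. The Empty shares cover all listed family members found there, and the other shares only the 41 that reached the minimum mean, so these sets differ. MiR-92a-3p stood at 18.7, 12.1 and 11.7 RPM in Empty, 92.3, 88.0 and 69.7 in d/d and 4753, 3003 and 3407 in fl/fl. MiR-582-3p and miR-6540-5p lay above all fl/fl libraries in Empty. MiR-130b-5p overlapped them, at 23.7, 13.5 and 7.56 RPM in Empty and 8.54, 3.43 and 4.30 in fl/fl, and lay below d/d, at 46.2, 44.7 and 40.1.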

How the data were processed

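Small RNA sequencing of 3 fl/fl and 3 d/d MEF libraries was analysed, with 3 OV libraries in the same fit. The deposited values are a signal: the authors divided the read counts of each mature miRNA by 1 size factor per library, per the file headers. Whole reads came back from 100% of values (tolerance 0.001). The submitters' processing notes name DESeq2. On the aligner, annotation and build nothing is given in the sources used here. The spike-in table differs by 1 factor per library. The deposited tables number 5. Of these, 3 entered the analysis, and 27 of their columns of per-sample values were not used.

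Those miRNAs with a mean of 10 or more normalized counts entered limma 3.58.1 in R 4.3.3 (trend on log2 of normalized count + 1, with groups alone in the design), and p-values were adjusted by Benjamini-Hochberg at 0.05. Totals were compared by exact permutation (scipy 1.17.1). Alternatives were spike-in scaling, re-centred medians, quantile scaling, pseudocounts of 0.5 and 5, no minimum or 100, 6 libraries only, collapsed identical entries, each library left out, and edgeR 4.0.16 and DESeq2 1.42.0 on recovered reads. The limma step was tested on simulated data.

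The miRNAs named are the products of miR-17~92, others with their seeds, the 15 most abundant in fl/fl, the 10 largest rises and falls at 100 or more normalized counts without overlap, and up to 4 of the most abundant members of each list, of which the text gives a part. Members and lists were chosen with earlier results of these data known.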

Additional observations from a re-analysis of the deposited data

How the results depend on the processing

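The number of differing miRNAs, 386, was between 272 (minimum mean of 100) and 430 (spike-in scaling) under all alternatives, with 391 by edgeR and 402 by DESeq2. Rises numbered 203, and 128 with a minimum mean of 100, which tests fewer miRNAs. Falls numbered 183, and 283 with spike-in scaling, which lowers differences by about 0.43. Leaving out each d/d or fl/fl library in turn gave 342 to 365 calls, 181 to 195 rises and 155 to 170 falls, and leaving out OV4, chosen after seeing the data, gave 409. No paired analysis was possible because the fl/fl columns carry numbers (3 to 5) that are not those of the labels' replicates.

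Of 118 miRNAs checked, 103 were called, and 14 lost the call under at least 1 of 18 alternatives. With spike-in scaling, and all but miR-183-5p and miR-7a-5p also with re-centred medians, these were let-7a-1-3p, let-7b-3p, let-7c-2-3p, let-7d-3p, miR-140-3p, miR-183-5p, miR-31-5p and miR-7a-5p. Without single libraries they were miR-106b-5p, miR-16-5p, miR-199a-5p, miR-27a-3p, miR-27b-3p and miR-93-5p, at adjusted p-values of up to 0.162. Signs turned with spike-in scaling for miR-21a-5p (−0.24), miR-143-3p (−0.21), miR-10a-5p (−0.37) and miR-1247-3p (−0.30), and with re-centred medians for the same 4 (−0.089, −0.063, −0.22 and −0.17). With quantile scaling miR-21a-5p and let-7i-5p were at 0.00, miR-99b-5p at 0.32, and let-7a-1-3p and let-7c-2-3p at −0.048 and −0.051. MiR-99b-5p ranged from −0.054 to 0.0003 with single libraries left out, turning without DEL1. Depth limits miRNAs under about 100 normalized counts, where a few reads set the difference and single libraries had none.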
